A study of Mus musculus with 74 samples.

Results

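Presentation of peptides on major histocompatibility complex (MHC) class II was followed through 9 genes, H2-Aa, H2-Ab1, H2-Eb1, H2-DMa, H2-DMb1, H2-Oa, H2-Ob, Cd74 and Ciita, chosen by name for their place in that pathway. They are 9 of the 49480 gene symbols in the count table, and each was present there. RNA came from C57BL/6J mice, for which the labels name no transgene or deletion, aged 12 or 3 months, all of which carried MC38 cells, a mouse colon carcinoma line, under the skin for 10 days, so no tumor-free mice serve as a control. There were 74 libraries, each made by Smart-seq2, which copies whole transcripts from few cells, out of 1000 twice-sorted cells of tumor or spleen. Within CD45+ cells, dendritic cells were gated as CD11b+ CD11c+ MHCII+ and macrophages as CD11b+ F4/80+. TCRb+ CD4+ cells were split by CD25 into regulatory (positive) and conventional (negative) T cells, and CD8 T cells were TCRb+ CD8+. Each type, tissue and age made 1 of 20 groups of 4 libraries, with 5 exceptions. Dendritic cells had 3 in tumor at 12 months and 3 in spleen at either age, and conventional CD4 T cells at 3 months had 2 in tumor and 3 in spleen. All mice were female except for 4 dendritic cell libraries, replicate 1 of each group. Surface MHC class II was part of the dendritic cell gate, so the high class II transcripts of those cells follow in part from how they were sorted.

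MHC class II molecules are pairs of an alpha and a beta chain that carry peptides from endosomes to the cell surface, where CD4 T cells read them. The alpha and beta chains of the I-A molecule are encoded by H2-Aa and H2-Ab1, and H2-Eb1 encodes the beta chain of the I-E molecule, whose alpha chain gene is inactive in C57BL/6 mice. Cd74 encodes the invariant chain, which escorts new class II molecules and blocks their groove until proteases such as cathepsin S cut it down to the fragment CLIP. H2-DM, made of H2-DMa with H2-DMb1 or H2-DMb2, exchanges CLIP for peptide, and H2-O, made of H2-Oa and H2-Ob, restrains H2-DM and is best known from B cells and some dendritic cells. Ciita encodes the class II transactivator, a coactivator that is recruited to the promoters of these genes by the RFX, CREB and NF-Y proteins and that is switched on by interferon gamma in macrophages.

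Library totals ran from 1652812 to 9115858 counts. Some libraries stood apart in ways that touch the results. In tumor dendritic cells the 10 macrophage markers summed to 4753, 15552 and 3276 CPM, which is counts scaled to a library total of 1000000, at 12 months and to 6204, 15920.3, 7857 and 5602 CPM at 3 months, so replicate 2 of each age was high. Tumor macrophages held 24.3 to 787 CPM of the 8 neutrophil markers and 10.8 to 40.4 CPM of the 10 B cell markers. In spleen macrophages these were 3761 to 39268 CPM of neutrophil and 969 to 3413 CPM of B cell markers. B cell markers were at 18.9 to 37.97 CPM in tumor dendritic cells, against 608 to 3661 CPM in spleen dendritic cells. Titles give 3 months for replicates 3 and 4 of the spleen dendritic cells whose age tag says 12 months, and the titles were followed. As a check of the labels, the T cell list summed to 3029 to 4506 CPM in tumor regulatory T cells and the macrophage list to 15506 to 26409.8 CPM in tumor macrophages. Nothing in the labels says whether the replicates stem from different mice, so each p-value measures the spread between these libraries, which may be technical.

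The sequences in front of the genes are shown because class II promoters are known for X and Y boxes, the elements at which Ciita is recruited, and several members hold matching letters. RefSeq promoters of 250 bases before to 50 bases after the start (GRCm38.p6) were at hand for 6 of the 9 members, and those of H2-Ab1, Ciita and Cd74 are not shown. Each window below has 60 bases in the 5′ to 3′ direction of the gene, with AACNNATG, the core of an X box, in capitals, and with ATTGG, the core of the Y box that NF-Y binds, in capitals. For H2-Aa the capitals before the Y box mark TGACGTCA, a CREB-type element. Motifs were chosen after the sequences had been seen. H2-DMb2, the neighbour of H2-DMb1, is shown for comparison.
H2-Aa: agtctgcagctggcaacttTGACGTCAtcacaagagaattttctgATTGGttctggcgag
H2-Eb1: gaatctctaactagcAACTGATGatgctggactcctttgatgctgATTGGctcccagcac
H2-DMb1: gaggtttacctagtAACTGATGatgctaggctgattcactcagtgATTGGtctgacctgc
H2-DMb2: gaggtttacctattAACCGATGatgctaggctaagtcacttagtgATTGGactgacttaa
H2-Ob: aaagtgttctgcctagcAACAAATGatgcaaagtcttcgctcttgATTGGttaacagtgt

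These windows lie at chr17:34287857-34287916 (minus strand) for H2-Aa, chr17:34305763-34305822 for H2-Eb1, chr17:34153085-34153144 for H2-DMb1, chr17:34145114-34145173 for H2-DMb2 and chr17:34238803-34238862 for H2-Ob (all plus strand), ahead of the RefSeq start of each gene. In the GENCODE annotation of that build 7 members lie on chromosome 17, from H2-Oa at 34092340 to 34095234 through to H2-Eb1 at 34305867 to 34316674, whereas Ciita lies on chromosome 16 at 10480059 to 10528418 and Cd74 on chromosome 18. The Y box core began 48 bases before the start of H2-Aa, 59 before H2-Eb1, 61 before H2-DMb1, 90 before H2-DMb2 and 57 before H2-Ob. In H2-Eb1, H2-DMb1, H2-DMb2 and H2-Ob an AACNNATG stood 20 to 23 bases ahead of it. That pair, with a gap of 10 to 30 bases on one strand, was found in 57 of 32851 promoters of the same length, which is 0.174%, whereas AACNNATG on either strand was in 8.86%, ATTGG in 37.4% and TGACGTCA in 1.79%. H2-Oa had an ATTGG without an AACNNATG, and neither H2-DMa promoter held the pair. The H2-DMb1 and H2-DMb2 windows had the same base at 51 of 60 positions.

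Class II chain transcripts were highest in dendritic cells, lower in macrophages and far lower in T cells. H2-Ab1, the I-A beta chain gene, had 20377, 16142 and 21312 CPM in tumor dendritic cells at 12 months and 20001, 13075, 18221 and 24125 CPM at 3 months. Tumor macrophages had 8828, 4969.9, 11668 and 5346 CPM of H2-Ab1 at 12 months and 14012, 10155, 11204 and 4236 CPM at 3 months. The lowest tumor dendritic cell library was thus below the highest tumor macrophage library. Among the T cell libraries H2-Ab1 ran from 1.07 to 55.6 CPM.

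The order of group means was alike for the 3 chain genes. For H2-Aa the 4 dendritic cell groups led, the 2 tumor macrophage groups followed and the 2 spleen macrophage groups came next, and of the steps in this order the libraries of neighbouring groups were apart at 3, namely between spleen dendritic cells at 3 and at 12 months, between spleen dendritic cells at 12 months and tumor macrophages at 3 months, and between spleen macrophages at 3 months and the T cell groups. H2-Eb1 had 2 such gaps and H2-Ab1 also 2. Cd74 had another order, with tumor macrophages at 12 months (5869 CPM) and at 3 months (6128 CPM) with higher means than all dendritic cell groups, although these first 5 groups overlapped in turn. Ciita and the H2-O genes had their highest means in spleen dendritic cells. H2-Oa averaged 688 ± 16.2 CPM at 12 months and 768 ± 109.7 CPM at 3 months there (SD, n = 3 each), and spleen dendritic cells at 12 months led for H2-Ob, apart from the next group, at 794, 849 and 685 CPM.

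**Figure D1:**
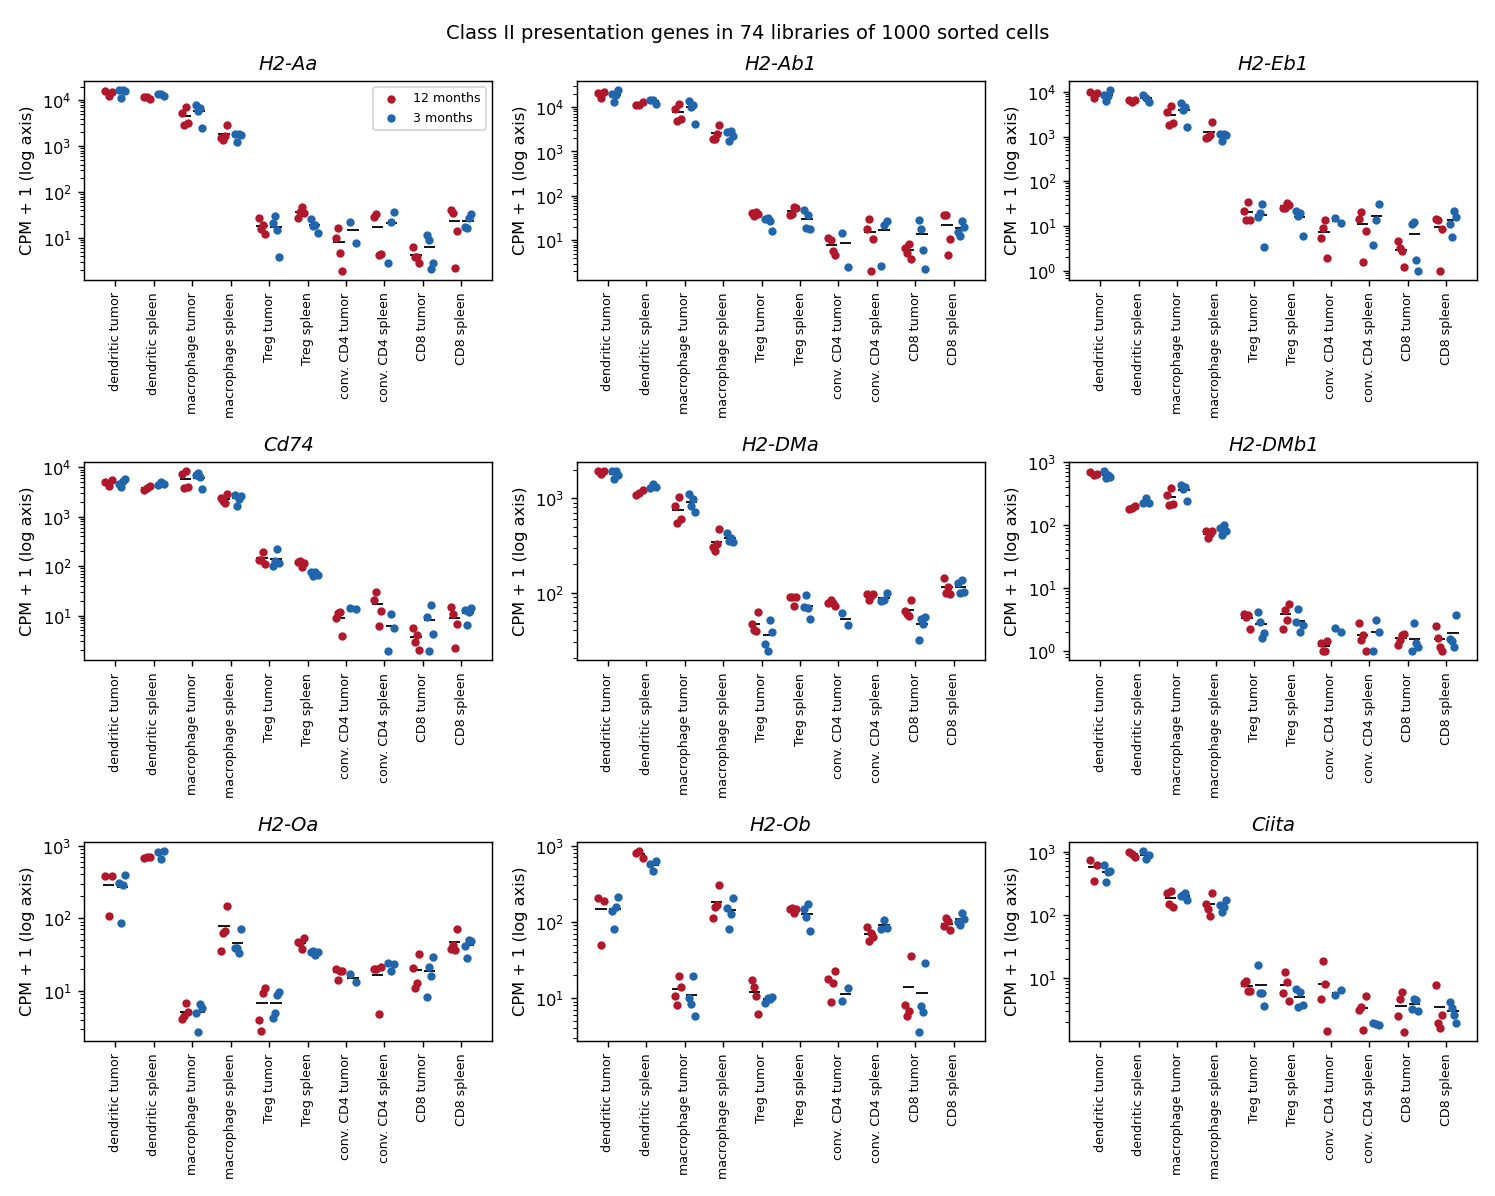
CPM plus 1 of the 9 class II presentation genes (vertical log axes) in each of the 74 libraries, by cell type with tumor left of spleen, at 12 months (red) and 3 months (blue), with black bars at group means. Dendritic cells and macrophages stand well above the T cells for the chain genes, while H2-Oa and H2-Ob are also present in spleen T cells.

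Levels can be set against each other between genes once divided by exon length, here that of GENCODE M21, since the annotation used by the authors is not given in the sources used here. Tumor dendritic cells had 15706 CPM per kilobase of H2-Ab1, 13220.1 of H2-Aa, 5242 of H2-Eb1 and 3473 of Cd74 as means over 7 libraries. The level per kilobase of the peptide editor was lower, 699 for H2-DMa and 451 for H2-DMb1, and that of Ciita lower still, 62.6. Relative to the I-A chains the invariant chain differed by cell type. In tumor there were 12.6 to 16.2 Cd74 counts per 100 counts of H2-Aa and H2-Ab1 in dendritic cells and 31.4 to 52.9 in macrophages, and in spleen 15.2 to 18.8 in dendritic cells and 42.6 to 67.9 in macrophages. The 2 types did not overlap in either tissue.

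H2-Eb1 was transcribed without its partner. H2-Ea-ps, the inactive alpha chain gene, reached at most 3.38 CPM in spleen dendritic cells and 3.14 CPM in spleen macrophages. In the same libraries H2-Eb1 ran from 6071 to 8635 CPM in dendritic cells and from 799.6 to 2179 CPM in macrophages.

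Dendritic cells were compared with macrophages of the same tissue. MHC class II protein was part of the dendritic cell gate only, so the comparison cannot separate the sort from the cell type. In spleen all 9 members were higher in dendritic cells, where 25.2% of all genes tested were called higher and 27.1% lower by edgeR's quasi-likelihood test with Benjamini-Hochberg adjustment, at 0.05. In tumor 8 of 9 were higher, against 26.4% of all genes called higher and 22.9% lower, and Cd74 was not called, at -0.20 (SE 0.22) on the log2 scale. Ciita was 515 ± 151 CPM in tumor dendritic cells and 190.3 ± 37.3 CPM in tumor macrophages (SD, n = 7 and 8), a change of 1.34 in log2 units (SE 0.18, adjusted p = 1.17e-05). Spleen dendritic cells had 895 ± 97.6 CPM and spleen macrophages 142 ± 38.8 CPM of Ciita (SD, n = 6 and 8), a change of 2.51 in log2 units (SE 0.16, adjusted p = 3.88e-10). Of the H2-O genes H2-Oa was present in tumor at 276 ± 129.9 CPM in dendritic cells and 4.10 ± 1.35 CPM in macrophages (SD, n = 7 and 8), a log2 fold change of 6.00 (SE 0.43).

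Macrophages of the tumor carried more transcript of the class II chains, the invariant chain and H2-DM than macrophages of the spleen, and less of H2-O. Of the 9 members 7 rose and 2 fell, while 23.9% of all genes tested rose and 27.8% fell. The median log2 fold change was 1.58 for the members and -0.06 for all genes. On library totals without TMM scaling the median of all genes was -0.28, and 30.9% of the calls over all genes were higher in tumor, against 46.2% with it, and the members called were 9 with either scaling. H2-Ab1 had the values given above in tumor, and spleen macrophages had 1935, 1944, 2471 and 3907 CPM at 12 months and 2800.0, 1743, 2942 and 2278 CPM at 3 months. Every tumor library was above every spleen library, and the change was 4.08-fold, a change of 2.03 in log2 units (SE 0.25, adjusted p = 3.59e-06).

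H2-Aa, the alpha chain of I-A, had 5400.4, 2874, 7009 and 3145 CPM in tumor and 1532, 1392, 1674 and 2899 CPM in spleen at 12 months. At 3 months it had 8076, 5772, 6745 and 2524 CPM in tumor and 1809, 1244, 1869 and 1795 CPM in spleen. The groups overlapped at 12 months, where replicate 4 of the spleen was above replicate 2 of the tumor, and the fit gave a change of 1.76 in log2 units (SE 0.24, adjusted p = 1.22e-05). H2-Eb1 averaged 3568 ± 1565 CPM in tumor and 1184 ± 421 CPM in spleen (SD, n = 8 each), a change of 1.81 in log2 units (SE 0.27, adjusted p = 3.07e-05). Its tissues overlapped at 12 months through the same spleen library. Fewer positive cells and less RNA per cell cannot be told apart in such bulk libraries.

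Cd74, the invariant chain gene, had 7149, 3734, 8583 and 4012 CPM in tumor and 2355, 2089.8, 1859 and 2897 CPM in spleen macrophages at 12 months. At 3 months Cd74 had 6941, 7579, 6415 and 3577 CPM in tumor and 2800.3, 1658, 2300.0 and 2668 CPM in spleen. All 8 tumor libraries were above all 8 spleen libraries, a change of 1.58 in log2 units (SE 0.19, adjusted p = 1.17e-06).

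The genes of the peptide editor rose as well. H2-DMb1 had 298, 206, 382 and 218 CPM in tumor and 78.6, 61.3, 70.8 and 78.8 CPM in spleen at 12 months. At 3 months H2-DMb1 had 433, 370.1, 406 and 238 CPM in tumor and 87.8, 69.8, 99.9 and 80.2 CPM in spleen. Tumor and spleen were far apart at both ages, a change of 2.23 in log2 units (SE 0.15, adjusted p = 3.67e-10). H2-DMa averaged 833 ± 206 CPM in tumor and 360.0 ± 65.2 CPM in spleen (SD, n = 8 each) and rose by 1.43 (SE 0.15) on the log2 scale, with the tissues apart. Ciita itself moved least of the members that rose, with 223, 147, 233 and 132 CPM in tumor and 145, 123, 95.7 and 221 CPM in spleen at 12 months, 195, 205, 219.7 and 168 CPM in tumor and 142, 109.9, 131 and 168 CPM in spleen at 3 months, and a change of 0.64 in log2 units (SE 0.15, adjusted p = 0.00176). For Ciita the tissues overlapped at 12 months and all but met at 3 months.

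H2-Ob and H2-Oa went the other way. H2-Ob had 9.62, 7.03, 18.4 and 13.1 CPM in tumor and 113, 157, 164 and 302 CPM in spleen at 12 months. At 3 months H2-Ob had 9.04, 7.40, 18.2 and 4.87 CPM in tumor and 150.3, 80.1, 127 and 207 CPM in spleen. No tumor library reached the lowest spleen library, and H2-Ob was 12.7-fold lower in tumor, a change of -3.67 in log2 units (SE 0.29, adjusted p = 1.18e-08). H2-Oa fell by the same order, to 4.10 ± 1.35 CPM in tumor, against 61.05 ± 38.5 CPM in spleen (SD, n = 8 each), a log2 fold change of -3.62 (SE 0.30).

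These falls moved with B cell transcripts. All 10 B cell markers had counts in macrophages of both tissues, although Pax5 had 0 counts in tumor at 3 months. Their sums are those given above, higher in every spleen library. Over the 8 spleen macrophage libraries there were 0.0826 to 0.116 H2-Ob counts and 0.0233 to 0.0466 H2-Oa counts per B cell marker count. In tumor macrophages there were 0.241 to 0.695 H2-Ob counts and 0.0567 to 0.450 H2-Oa counts, so the ratios of the tissues did not overlap. The library with the most B cell markers, replicate 4 of spleen at 12 months, also had the most H2-Oa, H2-Ob and H2-Aa of the spleen macrophages. The part of B cell RNA in these results was not tested, and neither was that of the neutrophil transcripts given above.

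Neighbouring genes of the same region did not move as one. H2-Eb2, a beta chain gene beside H2-Eb1, fell to 0.233 ± 0.316 CPM in tumor, against 17.3 ± 7.02 CPM in spleen (SD, n = 8 each). H2-DMb2 fell to 27.6 ± 6.40 CPM in tumor, against 116 ± 71.7 CPM in spleen, a change of -1.82 in log2 units (SE 0.25, adjusted p = 7.82e-06), although its close copy H2-DMb1 rose. H2-DMb1 made up 89.5 to 94.6% of the counts of the pair in tumor and 21.6 to 55.4% in spleen. How reads shared by the copies were counted is not given in the sources used here, so the split between them is uncertain. The B cell markers given above were also higher in every spleen library, and their part in these changes was not tested.

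The lists around the members are read against the 23.9% of all genes called higher and 27.8% called lower between tumor and spleen macrophages. Of 10 genes that process antigen or the invariant chain 8 rose and 1 fell, with a median log2 fold change of 1.29. Lgmn, the asparagine endopeptidase, had 3522 ± 485 CPM in tumor and 241 ± 49.2 CPM in spleen (SD, n = 8 each). Cathepsin S, Ctss, which trims the invariant chain, had 10359 ± 1554 CPM in tumor and 2587 ± 382 CPM in spleen, a log2 fold change of 2.22 (SE 0.10). Ctsl, the cathepsin L gene, rose by 3.77 (SE 0.20) on the log2 scale. Of 7 genes for the DNA-binding partners of Ciita none was called higher, and Nfyb (-0.66) and Creb1 (-0.61) fell, a share of lower genes near that of all genes.

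Among 13 genes that induce or repress Ciita 7 rose and 5 fell, beside 23.9% of all genes called higher and 27.8% lower. Socs1, which damps interferon gamma signalling, rose by 3.44 (SE 0.35) on the log2 scale, whereas Irf4 fell to 5.47 ± 4.23 CPM in tumor, against 56.3 ± 7.53 CPM in spleen. The receptor chain gene Ifngr1 fell by 0.91 on the log2 scale. Of 6 turnover and signalling genes 3 rose and 1 fell. They include Mif, a ligand of Cd74, which rose by 3.05 (SE 0.28), and Cd83, which protects class II from ubiquitination, which rose by 0.80 (SE 0.17).

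Tumor macrophage libraries differed widely among themselves, and the members differed together. The same 3 of 8 libraries, replicates 2 and 4 at 12 months and replicate 4 at 3 months, were the 3 lowest for H2-Aa, H2-Ab1, H2-Eb1, H2-DMa, H2-DMb1, Cd74 and Ciita, but not for H2-Oa or H2-Ob. H2-Aa ran from 2524 to 8076 CPM over the 8. The summed macrophage markers were lowest in the same 3 libraries too, at 18343, 17254 and 15506 CPM. With any 1 of the macrophage libraries left out, all 9 members were still called between the tissues. The part of cell makeup in the member levels was not tested.

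**Figure D2:**
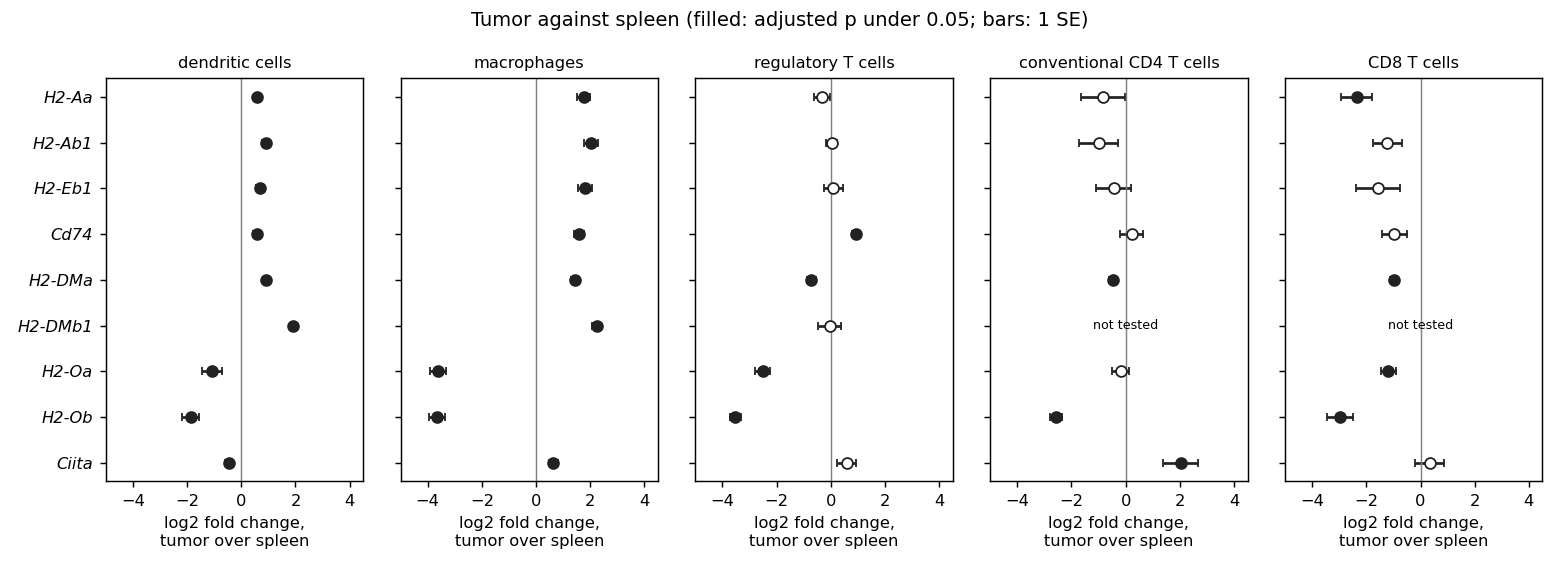
Model log2 fold change of tumor over spleen (horizontal axis) for the 9 members (rows) in 5 cell types, with bars of 1 SE and filled points for an adjusted p under 0.05. The chain, invariant chain and H2-DM genes lie to the right of 0 in dendritic cells and macrophages, and H2-Ob lies to the left in all 5 types.

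In dendritic cells the chain, invariant chain and H2-DM genes were likewise higher in tumor and the H2-O genes lower, and Ciita was lower as well. In tumor 6 members were higher and 3 lower than in spleen, against 24.4% of all genes called higher and 22.7% lower, with a median log2 fold change of 0.59 for the members and -0.04 for all genes. H2-DMb1 had 685, 626 and 641 CPM in tumor and 179, 186 and 199 CPM in spleen at 12 months. At 3 months H2-DMb1 had 733, 548, 628 and 574 CPM in tumor and 222, 263 and 219 CPM in spleen. The tissues were apart at both ages, a change of 1.92 in log2 units (SE 0.10, adjusted p = 3.64e-09). H2-DMa was also apart at both ages and rose by 0.92 (SE 0.09).

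The chain genes and Cd74 rose too. H2-Ab1 averaged 19036 ± 3614 CPM in tumor and 12649.8 ± 1589 CPM in spleen (SD, n = 7 and 6), a change of 0.93 in log2 units (SE 0.14, adjusted p = 8.78e-05). H2-Aa had 16387, 12389 and 15363 CPM in tumor and 11886, 11850.1 and 10792 CPM in spleen at 12 months, and 16545, 11279.5, 16767 and 15655 CPM in tumor and 14004, 13648 and 12434 CPM in spleen at 3 months. Its tissues were apart at 12 months and overlapped at 3 months through the tumor replicate rich in macrophage markers, with a change of 0.59 in log2 units (SE 0.11, adjusted p = 0.000629). H2-Eb1 rose by 0.68 (SE 0.13) and Cd74 by 0.56 (SE 0.11). These fold changes rest on TMM scaling of the libraries. On library totals without TMM scaling the median of all genes was -0.37, and 29.4% of the calls over all genes were higher in tumor, against 51.8% with it. There H2-Aa (0.27, adjusted p = 0.0615) and Cd74 (0.23, adjusted p = 0.0956) were no longer called.

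Ciita and the H2-O genes were lower in tumor dendritic cells. Ciita had 734, 336 and 622 CPM in tumor and 979, 926 and 825 CPM in spleen at 12 months. At 3 months Ciita had 609, 327, 482 and 496 CPM in tumor and 1018, 757 and 868 CPM in spleen. Every tumor library was below every spleen library of its age, a change of -0.46 in log2 units (SE 0.14, adjusted p = 0.0171). H2-Ob had 203, 48.1 and 186 CPM in tumor and 794, 849 and 685 CPM in spleen at 12 months, and 136, 78.98, 154 and 208 CPM in tumor and 580.5, 464 and 624.8 CPM in spleen at 3 months. It fell 3.62-fold, a change of -1.86 in log2 units (SE 0.32, adjusted p = 0.000701). H2-Oa fell with a change of -1.07 in log2 units (SE 0.36, adjusted p = 0.0334), a call that ended in 7 of 13 fits with 1 library left out, where its adjusted p reached 0.0761. The H2-Oa and Ciita calls also ended without the 2 libraries whose title and age tag differ, at adjusted p = 0.205 for H2-Oa and 0.134 for Ciita.

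Replicate 2 of each age, rich in macrophage markers, had the lowest H2-Oa, H2-Ob and Ciita of the tumor dendritic cells. With either or both left out, all 9 members were called between the tissues. Per B cell marker count, the tumor dendritic cells had 1.27 to 10.9 counts of H2-Ob, against 0.227 to 0.885 in spleen dendritic cells. H2-DMb2 averaged 288 ± 114 CPM in tumor and 585 ± 88.7 CPM in spleen (SD, n = 7 and 6) and was not called (adjusted p = 0.06), although the tissues did not overlap. H2-DMb1 made up 58.4 to 82.04% of the pair in tumor and 22.9 to 38.6% in spleen. The plasmacytoid markers, 2.97 to 53.8 CPM in tumor against 168 to 744 CPM in spleen, and the B cell markers given above moved with the H2-O genes. Markers of other myeloid cells moved the other way. The macrophage markers were at 3276 to 15920.3 CPM in tumor dendritic cells, against 922 to 1716 CPM in spleen dendritic cells, and the 4 monocyte markers at 1160.3 to 2246 CPM in tumor, against 224 to 559.7 CPM in spleen. In every tumor library the macrophage sum was above that of the 8 dendritic cell markers, which were at 895 to 3101 CPM in tumor, against 1608 to 2653 CPM in spleen. The part of these cells in the changes of the members was not tested, and leaving out both replicates 2 does not remove the difference in macrophage markers.

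The lists around the members are read against the 24.4% of all genes called higher and 22.7% called lower in dendritic cells. Of 10 antigen processing genes 9 rose and 0 fell, with a median log2 fold change of 1.48, beside the macrophage and monocyte markers just given, whose part was not tested. Ctss rose to 7539 ± 1785 CPM in tumor, against 1672 ± 184 CPM in spleen (SD, n = 7 and 6), and Sppl2a, which cleaves the last fragment of the invariant chain, rose by 1.39 (SE 0.11). Of 7 promoter-binding partners Rfx5 (-1.35) and Creb1 (-0.71) fell and none rose, a share near that of all genes. Among 13 inducers and repressors 7 rose and 0 fell, with Irf1, an activator of the Ciita promoter, at 0.96 (SE 0.11) and Socs1 at 3.34 (SE 0.37). Of 6 turnover genes 5 rose and 0 fell, with Cd83 at 1067 ± 424 CPM in tumor and 585 ± 122 CPM in spleen.

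The balance of H2-O to H2-DM summarised these changes within each library, and it is given as a description. Tumor dendritic cells had 19.5, 5.98 and 18.6 counts of H2-Oa and H2-Ob per 100 counts of H2-DMa, H2-DMb1 and H2-DMb2 at 12 months and 14.7, 7.22, 15.3 and 21.7 at 3 months. Spleen dendritic cells had 78.1, 79.3 and 66.2 at 12 months and 65.5, 52.7 and 69.2 at 3 months. Tumor macrophages had 0.749 to 2.02 and spleen macrophages 23.9 to 53.8. Tumor and spleen did not overlap in either type. The same held in regulatory T cells, with 23.4 to 50.6 in tumor and 144 to 278 in spleen, and in conventional CD4 T cells, with 25.2 to 54.9 in tumor and 80.4 to 138 in spleen. CD8 T cells overlapped, with 25.2 to 103 in tumor and 83.1 to 154 in spleen.

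**Figure D3:**
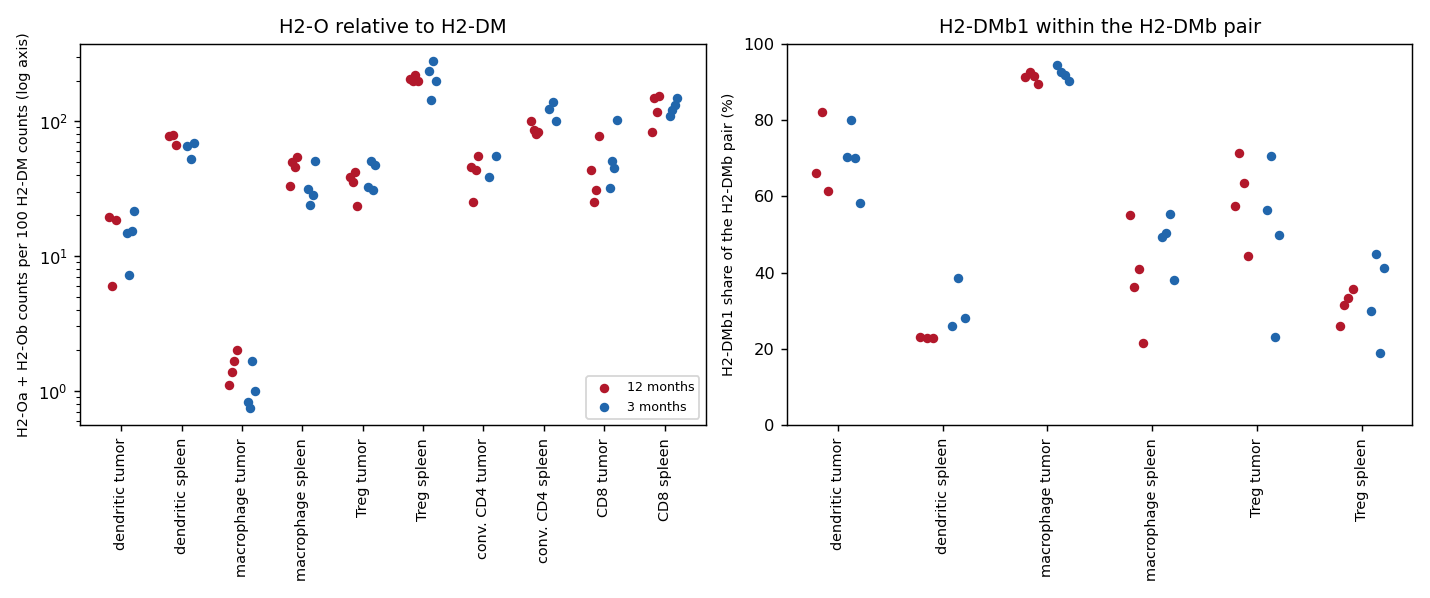
Counts of H2-Oa and H2-Ob per 100 H2-DM counts (left, log axis) by cell type and tissue, and H2-DMb1 as a percentage of the H2-DMb1 and H2-DMb2 counts (right), 1 point per library, at 12 months (red) and 3 months (blue). Tumor lies below spleen on the left in dendritic cells and macrophages, and above it on the right.

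T cells had far less chain transcript than dendritic cells and macrophages. In spleen T cells the mean levels of H2-Ob and H2-DMa were above those of the chain genes. Tumor regulatory T cells at 12 months averaged 38.98 CPM of H2-Ab1, against 11.02 CPM of H2-Ob and 5.73 CPM of H2-Oa. In CD8 T cells 4 members fell and none rose in tumor, against 19.6% of all genes called lower and 22.5% higher. In CD8 and in conventional CD4 T cells 8 of 9 members passed the filter on low counts, and H2-DMb1 did not. H2-Ob had 7.21, 4.82, 5.75 and 34.6 CPM in tumor and 86.8, 109.7, 102 and 77.8 CPM in spleen at 12 months. At 3 months H2-Ob had 2.63, 6.81, 5.51 and 27.5 CPM in tumor and 98.6, 90.8, 130.3 and 109 CPM in spleen. Spleen was above tumor throughout, although replicate 4 of each age stood above the other tumor libraries, and the fit gave a change of -2.98 in log2 units (SE 0.48, adjusted p = 0.000244). H2-DMa averaged 54.9 ± 14.8 CPM in tumor and 113 ± 17.7 CPM in spleen (SD, n = 8 each), a change of -0.98 in log2 units (SE 0.13, adjusted p = 1.82e-06). H2-Oa fell by 1.18 (SE 0.26) and H2-Aa, at 4.33 ± 3.39 CPM in tumor and 22.4 ± 12.9 CPM in spleen, fell by 2.36 (SE 0.56) on the log2 scale.

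Regulatory T cells had less of both H2-O transcripts and more Cd74 in tumor. Of 9 members 3 fell and 1 rose, against 27.6% of all genes called lower and 25.9% higher. On library totals without TMM scaling the median of all genes was -0.29, and 31.7% of the calls over all genes were higher in tumor, against 48.4% with it. H2-Ob had 16.2, 13.02, 9.71 and 5.20 CPM in tumor and 145, 153, 131 and 147 CPM in spleen at 12 months. At 3 months H2-Ob had 7.56, 8.98, 8.75 and 9.41 CPM in tumor and 146, 113, 169.9 and 75.4 CPM in spleen, so that the tissues were far apart, a change of -3.52 in log2 units (SE 0.19, adjusted p = 3.68e-12). H2-Oa had 2.99, 1.81, 8.35 and 9.78 CPM in tumor and 45.4, 44.4, 36.6 and 52.97 CPM in spleen at 12 months, and 3.17, 3.94, 7.71 and 8.69 CPM in tumor and 32.98, 33.96, 30.5 and 33.8 CPM in spleen at 3 months. It too was apart in all libraries. H2-Oa fell by 2.52 (SE 0.27) and H2-DMa by 0.72 (SE 0.16) on the log2 scale.

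Cd74 was the member that rose in regulatory T cells. It had 132, 134, 195 and 109 CPM in tumor and 121, 125, 94.9 and 113 CPM in spleen at 12 months, and 98.99, 126, 226 and 115 CPM in tumor and 75.4, 62.8, 75.05 and 64.2 CPM in spleen at 3 months. The tissues overlapped at 12 months, and the fit gave a change of 0.91 in log2 units (SE 0.15, adjusted p = 2.15e-05). Tumor libraries held 1266 to 3071 CPM of the 4 monocyte markers, 69.7 to 235 CPM of neutrophil markers, 34.9 to 113 CPM of the 4 eosinophil markers and 21.4 to 59.03 CPM of macrophage markers. Spleen libraries held 11.47 to 172 CPM of monocyte, 1.30 to 6.24 CPM of neutrophil, 0 to 17.3 CPM of eosinophil and 15.2 to 51.5 CPM of macrophage markers. The first 3 lists were thus apart between the tissues and the macrophage list overlapped. In tumor regulatory T cells Siglecf of the eosinophil list had 0 counts. Of the neutrophil list S100a8, Retnlg and Camp had 0 counts there at 3 months, while all 8 markers had counts at 12 months. Tumor CD8 T cells also held 1419 to 3147 CPM of the monocyte markers. Whether the sums stem from such cells, and their part in the result, was not tested. Conventional CD4 T cells had far less Cd74, 2.82 to 13.04 CPM in tumor against 0.948 to 28.6 CPM in spleen, without overlap with regulatory T cells.

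In conventional CD4 T cells 2 members fell and 1 rose in tumor, against 11.2% of all genes called lower and 16% higher. H2-Ob had 16.96, 7.87, 14.97 and 21.6 CPM in tumor and 84.9, 54.6, 70.8 and 62.7 CPM in spleen at 12 months, and 8.06 and 12.7 CPM in tumor and 79.7, 104 and 82.5 CPM in spleen at 3 months. The tissues were apart at both ages, a change of -2.57 in log2 units (SE 0.23, adjusted p = 1.51e-09). H2-DMa fell by 0.46 (SE 0.15), and Ciita was 6.42 ± 5.88 CPM in tumor and 1.72 ± 1.31 CPM in spleen (SD, n = 6 and 7), a change of 2.03 in log2 units (SE 0.65, adjusted p = 0.021). The calls of H2-DMa and Ciita ended when replicate 3 of tumor at 3 months was left out, with adjusted p = 0.148 for H2-DMa and 0.0612 for Ciita, and H2-Oa was not called (-0.18 (SE 0.31)).

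Spleen T cells had more H2-Ob per B cell marker count than spleen macrophages, and so had the tumor groups. The 10 B cell markers summed to 59.8 to 128 CPM in CD8 T cells, 74.1 to 126 CPM in regulatory T cells and 14.96 to 64.03 CPM in conventional CD4 T cells of the spleen, against 9.60 to 34.7 CPM, 17.1 to 34.5 CPM and 9.90 to 38.1 CPM in the same types of the tumor. Spleen CD8 T cells had 0.796 to 1.70 H2-Ob counts per B cell marker count. Regulatory T cells of the spleen had 0.997 to 1.96 and conventional CD4 T cells 0.940 to 5.25. All were above the 0.0826 to 0.116 of spleen macrophages. So were tumor regulatory T cells (0.150 to 0.777), CD8 T cells (0.163 to 1.77) and conventional CD4 T cells (0.206 to 1.77). Tumor macrophages, at 0.241 to 0.695, were above that range too. For H2-Aa there were 0.0209 to 0.461 counts per B cell marker count in spleen CD8 T cells, 0.158 to 0.552 in regulatory and 0.122 to 0.893 in conventional CD4 T cells, against 0.849 to 1.58 in spleen macrophages. CD8 and regulatory T cells were below the macrophages, and conventional CD4 T cells overlapped them. Tumor macrophages had 146 to 273 H2-Aa counts per B cell marker count, so this ratio in macrophages is not a measure of B cell RNA. The part of B cell RNA in the T cell values was not tested.

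**Figure D4:**
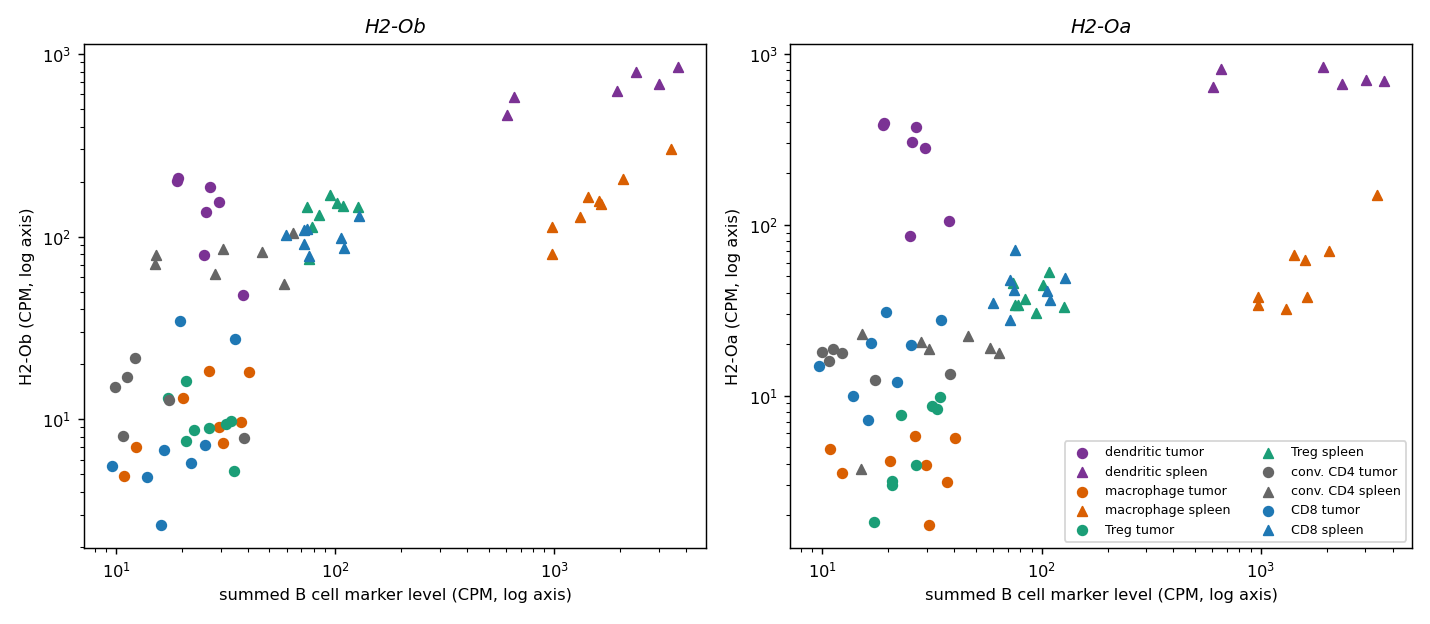
H2-Ob (left) and H2-Oa (right) in CPM against the summed level of 10 B cell markers in CPM, both on log axes, with 1 point per library, circles for tumor and triangles for spleen. Spleen macrophages line up along a slope, most closely for H2-Ob. Libraries of the other types and of tumor macrophages had more H2-Ob per B cell marker count.

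No member was called between 12 and 3 months in any cell type of either tissue. Over the 10 age comparisons edgeR's quasi-likelihood test called 0 members and DESeq2 called 2. By edgeR 13 member tests had an unadjusted p under 0.05. They were 4 of 8 in spleen regulatory T cells (653 of 12261 genes), 3 of 9 in spleen dendritic cells (1535 of 12650) and 2 of 7 in spleen conventional CD4 T cells (2297 of 11726). Each other comparison had 0 or 1. There the genes ran from 158 of 12090 in tumor dendritic cells to 909 of 11677 in spleen CD8 T cells. All 9 members passed the filter on low counts in both myeloid types, and 7 to 9 did in the T cell comparisons. Among all genes tested the share called in tumor was 0% in macrophages, 0% in dendritic cells, 0% in regulatory T cells, 0.0311% in conventional CD4 T cells and 0% in CD8 T cells. In spleen it was 0% in macrophages, 0.593% in dendritic cells, 0.0489% in regulatory T cells, 3.92% in conventional CD4 T cells and 1.02% in CD8 T cells. The age by tissue interaction called 0 members in all 5 types by edgeR and 0 by DESeq2. Its 3 member tests at an unadjusted p under 0.05 by edgeR were 2 of 8 in conventional CD4 T cells (1516 of 14661 genes) and 1 of 9 in regulatory T cells (521 of 13345). The share of all genes called was 0% in macrophages, 0% in dendritic cells and 0% in regulatory T cells. It was 0.668% in conventional CD4 T cells and 0.143% in CD8 T cells.

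The smallest unadjusted p among these member tests belonged to Cd74 in spleen regulatory T cells. It had 121, 125, 94.9 and 113 CPM at 12 months and 75.4, 62.8, 75.05 and 64.2 CPM at 3 months, so the ages did not overlap, with a change of 0.69 in log2 units (SE 0.14, adjusted p = 0.139). DESeq2 gave an adjusted p of 0.0028 for the same libraries. H2-Aa was also apart, with 26.8, 35.02, 46.4 and 33.8 CPM at 12 months and 25.3, 17.3, 17.98 and 11.9 CPM at 3 months, a change of 0.95 in log2 units (SE 0.25, adjusted p = 0.536). H2-Eb1 had 24.97, 23.8, 31.7 and 28.9 CPM at 12 months and 21.3, 16.1, 18.5 and 4.95 CPM at 3 months, a change of 0.82 in log2 units (SE 0.34, adjusted p = 0.899). H2-Oa, with the spleen values given above, was likewise apart and higher at 12 months, a change of 0.44 in log2 units (SE 0.17, adjusted p = 0.89). These 4 members were all apart and higher at 12 months, and none was called by edgeR. The share of all genes that were apart in these libraries was not computed. B cell markers overlapped between the ages there, at 74.1 to 108 CPM at 12 months and 75.6 to 126 CPM at 3 months.

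In spleen dendritic cells H2-Ob had 794, 849 and 685 CPM at 12 months and 580.5, 464 and 624.8 CPM at 3 months, a change of 0.50 in log2 units (SE 0.14, adjusted p = 0.132), and DESeq2 gave an adjusted p of 0.0434. By the titles the ages did not overlap, but replicates 3 and 4 at 3 months carry an age tag of 12 months. Only replicate 1 was thus 3 months by both title and tag. B cell markers moved with it, at 2355, 3661 and 3011 CPM at 12 months and 656, 608 and 1926 CPM at 3 months, and their part in the result was not tested. H2-Aa, H2-DMa, H2-DMb1 and Cd74 were apart in the other direction, and none of them was called. Their log2 fold changes were -0.20 (SE 0.11), -0.21 (SE 0.11), -0.30 (SE 0.14) and -0.26 (SE 0.11). The share of all genes that were apart in these spleen dendritic cell libraries was not computed.

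Other members reached an unadjusted p under 0.05 without a call. H2-Oa in spleen macrophages had 33.8, 62.2, 66.2 and 148 CPM at 12 months and 37.97, 37.9, 32.1 and 69.8 CPM at 3 months, a change of 0.84 in log2 units (SE 0.37, adjusted p = 0.817). The ages overlapped, and the B cell markers were 969, 1595, 1421 and 3413 CPM at 12 months and 1632, 970.0, 1312 and 2055 CPM at 3 months, whose part was not tested. H2-Ab1 in tumor regulatory T cells had 39.97, 34.3, 42.5 and 39.1 CPM at 12 months and 29.5, 31.3, 26.7 and 15.4 CPM at 3 months, a change of 0.59 in log2 units (SE 0.23, adjusted p = 0.999), and its ages were apart. H2-DMa was apart in the same direction in tumor CD8 T cells, with 62.3, 57.8, 55.2 and 82.7 CPM at 12 months and 30.5, 51.97, 44.97 and 53.6 CPM at 3 months, a change of 0.52 in log2 units (SE 0.21, adjusted p = 1). In tumor conventional CD4 T cells H2-DMa had 75.8, 82.3, 75.6 and 71.4 CPM at 12 months and 59.3 and 44.6 CPM at 3 months, a change of 0.53 in log2 units (SE 0.24, adjusted p = 0.936), and the ages were apart there too. There 2 other members were apart in the other direction. The share of all genes that were apart in these tumor libraries was not computed.

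In spleen conventional CD4 T cells 2 members moved in opposite directions below the threshold. Cd74 had 19.4, 28.6, 5.07 and 11.52 CPM at 12 months and 0.948, 9.76 and 4.59 CPM at 3 months, a change of 1.50 in log2 units (SE 0.62, adjusted p = 0.182). H2-Ob had 84.9, 54.6, 70.8 and 62.7 CPM at 12 months and 79.7, 104 and 82.5 CPM at 3 months, a change of -0.54 in log2 units (SE 0.21, adjusted p = 0.159). Both overlapped between the ages. Of all calls in this comparison 50% were higher at 12 months with TMM scaling and 78.6% on library totals.

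For 3 members the myeloid age estimates in tumor illustrate the errors. H2-Ab1 differed by -0.42 (SE 0.38) in macrophages and by 0.01 (SE 0.24) in dendritic cells on the log2 scale, and Cd74 by -0.11 (SE 0.30) in macrophages and -0.02 (SE 0.21) in dendritic cells. Ciita differed by -0.15 (SE 0.19) in macrophages and 0.16 (SE 0.24) in dendritic cells.

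**Figure D5:**
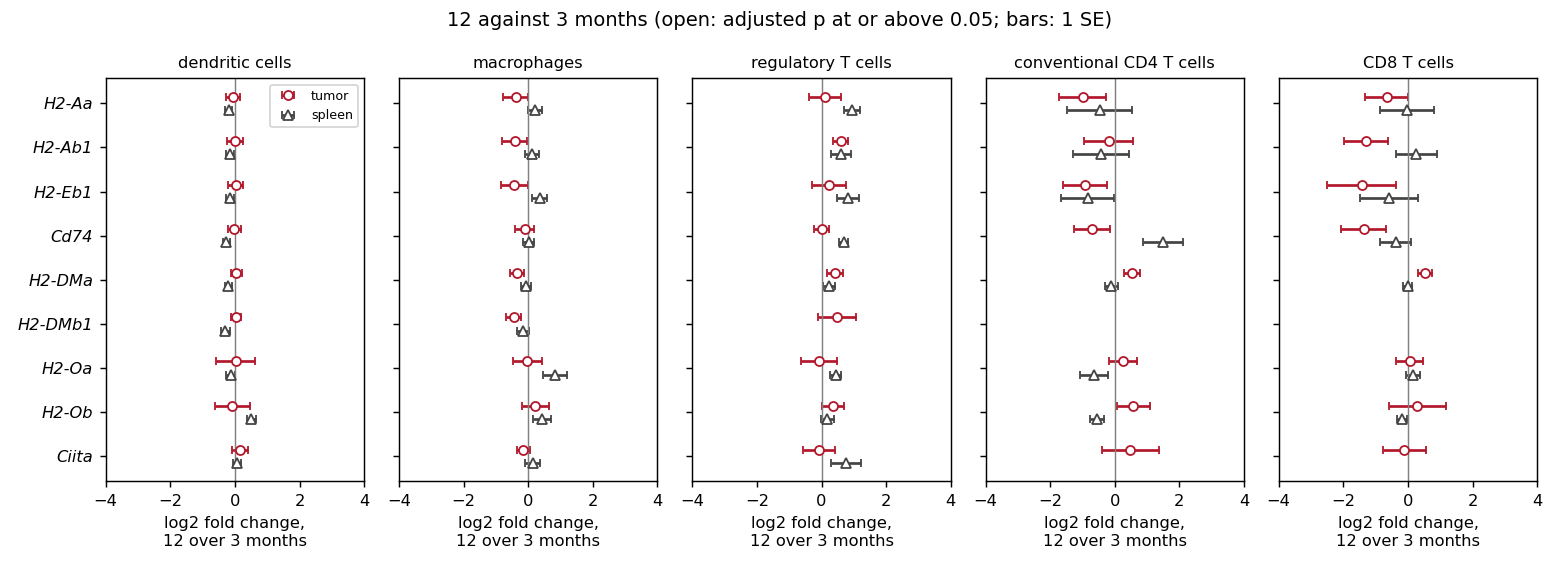
Model log2 fold change of 12 over 3 months (horizontal axis) for the 9 members (rows) in 5 cell types, in tumor (red circles) and spleen (grey triangles), with bars of 1 SE. All points are open, since no adjusted p was under 0.05, and members that failed the low-count filter have no point.

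Genes with the pattern most like the class II core, the mean log2(CPM + 1) of H2-Aa, H2-Ab1, H2-Eb1 and Cd74, were sought among those with a mean of at least 10 CPM. Over all 74 libraries, which fall into myeloid and T cell blocks, they were Fgd2 (r = 0.972), Ly86 (r = 0.969), Ctsh (r = 0.968), Cd40 (r = 0.963), Stx7 (r = 0.963), Sh2d1b1 (r = 0.960), Plbd1 (r = 0.960) and Csf2rb2 (r = 0.960) by Pearson's r. Over the 16 macrophage libraries they were Tlr12 (r = 0.950), H2-M3 (r = 0.943), Apoe (r = 0.942), Ly86 (r = 0.935), Fgd2 (r = 0.927), Sdf2l1 (r = 0.926), Pdia3 (r = 0.925) and Itm2c (r = 0.924). The 5 genes most like Ciita over all libraries were Sh2d1b1 (r = 0.971), Tbc1d9 (r = 0.964), Wdfy4 (r = 0.963), Lmo2 (r = 0.959) and Batf3 (r = 0.954). The points share cell types and tissues, so the values describe likeness of pattern.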

How the data were processed

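Gene counts were deposited by the authors as whole-number raw counts per gene symbol, and per the submitters' processing notes they were made with STAR 2.5.3 and featureCounts on mm10. Which annotation and strand setting were used, and how reads shared by copies were treated, is not stated there. All sample columns matched a title, and 0 columns were left unused. Replicates were compared in 103 pairs, of which 0 were identical.

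CPM were computed as counts scaled to a library total of 1000000. Tests used edgeR 4.0.16 in R 4.3.3 (TMM, filterByExpr, robust quasi-likelihood fits, Benjamini-Hochberg adjustment over all genes tested, threshold 0.05), with sex as a covariate in fits with dendritic cells. The SE is the absolute log2 fold change divided by the square root of the F statistic. The procedure was tested on simulated data. Tumor against spleen was the mean over both ages, fitted on all 4 groups of a type, while the age comparisons used only the 2 groups compared. Alternatives were DESeq2 1.42.0, its size factors, library totals, no filter, a replicate block, each library left out, all 4 groups in one fit, no sex covariate, other handling of the conflicting age tags, and fits without ribosome-rich libraries or without the tumor dendritic cell libraries rich in macrophage markers.

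All 9 members were named. From each pathway list up to 4 called genes by smallest adjusted p and up to 2 uncalled ones could be named. One gene that this rule allows is not reported here. The members and lists were chosen with earlier results of these data known. Same-numbered libraries deviated together by the preset limit, a correlation over 0.1 in every pair, only for tumor regulatory T cells at 12 and 3 months (0.111 to 0.349), where 0 members were called with and without the block.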

Additional observations from a re-analysis of the deposited data

Results flagged for a closer look

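Of 129 sets of 4 libraries with a member at a mean of at least 1 CPM, 9 had a highest or lowest library farther from the rest than Dixon's 95% limit, and chance gives about 1 in 20. In spleen macrophages H2-Aa was 1244 CPM in replicate 2 at 3 months, against 1795 to 1869 CPM in the others, H2-Eb1 was 2179 CPM in replicate 4 at 12 months, against 942 to 1116 CPM, and H2-Oa was 69.8 CPM in replicate 4 at 3 months, against 32.1 to 38.0 CPM. In spleen regulatory T cells H2-DMa was 70.2 CPM in replicate 3 at 12 months, against 87.6 to 88.3 CPM. In conventional CD4 T cells at 12 months H2-Oa was 13.3 CPM in replicate 2 of the tumor, against 17.8 to 18.8 CPM, and 3.74 CPM in replicate 3 of the spleen, against 18.7 to 20.6 CPM. In tumor CD8 T cells H2-Ob was 34.6 CPM in replicate 4 at 12 months, against 4.82 to 7.21 CPM, and 27.5 CPM in replicate 4 at 3 months, against 2.63 to 6.81 CPM. Ciita was 6.79 CPM in replicate 1 of spleen CD8 T cells at 12 months, against 0.626 to 1.63 CPM.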

How the results depend on the processing

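Single members kept their side of the threshold in 3322 of 3358 alternative values, while 22 lost a call, 14 gained one and 0 called values changed sign. Direction was not compared for values that were uncalled in both fits. In spleen dendritic cells the age comparison, with 0 members called, gave 1 with no low-count filter and 1 with DESeq2, and 0 to 1 with single libraries left out (1 without replicate 4 at 3 months). In spleen regulatory T cells it gave 2 with no filter and 1 with DESeq2. In conventional CD4 T cells tumor against spleen had 3 members called, 1 with the replicate block, 1 without the ribosome-rich spleen libraries, an alternative chosen after seeing the data, and 1 to 3 with single libraries left out (1 without replicate 3 of tumor at 3 months). The age comparison in their spleen gave 0 to 1 (1 without replicate 3 at 3 months). CD8 T cells had 4 members called between the tissues, 4 to 7 with single libraries left out (7 without replicate 3 of spleen at 12 months) and 5 with the replicate block. Outside tumor regulatory T cells no comparison passed the preset limit in every pair of same-numbered libraries. Single pairs of 12 and 3 months still reached correlations of 0.534 (replicate 2 of tumor dendritic cells) and 0.313 (replicate 3 of tumor macrophages). The block changed no other count of members. Dendritic cells in tumor against spleen had 9 members called and 7 on library totals, an alternative also chosen after seeing the data. The cause of these changes was not tested. Members under about 10 CPM in T cells rest on few counts.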
